A study of Mus musculus with 47 samples.

Results

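Protocadherins are calcium-dependent cell adhesion proteins of the cadherin superfamily, and most of them are expressed in neurons. The genes described here are the rows of a hippocampal count table whose symbol begins with Pcdh and whose reads sum to at least 47 over the 47 libraries, which gave 67 of 35486 rows. Of these, 12 belonged to the alpha cluster, 22 to the beta cluster and 21 to the gamma cluster, and 12 were unclustered. The unclustered genes were 4 delta-1 genes (Pcdh1, Pcdh7, Pcdh9 and Pcdh11x), 5 delta-2 genes (Pcdh8, Pcdh10, Pcdh17, Pcdh18 and Pcdh19) and 3 others (Pcdh12, Pcdh15 and Pcdh20).

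Hippocampal RNA was taken from male mice of the C57BL/6J strain, split by age and treatment. Young Veh (n = 13, aged 3.75 to 5.26 months) and Old Veh (n = 12, 17.47 to 19.97 months) received vehicle, and Young PF4 (n = 12, 4.08 to 5.03 months) and Old PF4 (n = 10, 17.4 to 20.23 months) received mouse platelet factor 4, a chemokine released by activated platelets, by daily intraperitoneal injection. No genetic alteration is given for any group. The study asked how age and PF4 alter hippocampal expression.

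The alpha, beta and gamma clusters lie one after the other on a single chromosome. Each gene has its own promoter and a large exon for the extracellular and transmembrane parts. In the alpha and gamma clusters that exon is spliced to constant exons common to the whole cluster, whereas a beta gene ends with its own exon. Single neurons express a subset of the isoforms, and like isoforms on facing membranes bind each other, which is known for its part in self-recognition and spacing of dendrites and axons. The C-type genes at the end of the alpha and gamma clusters are expressed more widely among neurons than the others. Unclustered delta protocadherins differ in their cytoplasmic motifs and act in adhesion, cell sorting and circuit formation.

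Between 2242879 and 21112908 reads were counted per library (median 10374007). The 8 libraries of lowest depth comprised 4 Old Veh, 2 Young PF4, 1 Young Veh and 1 Old PF4 library. The number in each sample's title ran from 1 to 12 in Old Veh, from 13 to 23 in Old PF4 and from 24 to 48 in the young groups, so age and any order of handling that those numbers record cannot be told apart, and neither can that order and PF4 in old mice. The tissue label was checked against 6 genes of hippocampal neurons (Prox1, Wfs1, Neurod6, Zbtb20, Slc17a7 and Snap25). Each was detected in every library, and their summed level ran from 3980 to 5585 CPM (reads per 1000000 counted, with library sizes scaled by the TMM method). In bulk tissue, fewer cells of a type and less RNA per cell cannot be told apart.

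The alpha and gamma rows of the table did not behave as separate measurements. The 12 alpha genes have 2860 exon bases in common and the 21 gamma genes 2116, and reads on these were counted on every gene of the cluster. In consequence the alpha rows held between 42169 reads (Pcdha1) and 65908 (Pcdhac2) over all libraries, and the gamma rows between 130679 (Pcdhga1) and 156316 (Pcdhgc5). Within a library the lowest alpha row reached 95.2% to 98.8% of the median alpha row, and the lowest gamma row 96.7% to 98.6% of the median gamma row. The lowest row of a cluster in a library was therefore taken as the level of the shared exons, and the excess of a row over it as the reads beyond the shared exons. Outside the shared exons Pcdhga4 also overlaps Pcdhgb1, and Pcdhga8 overlaps Pcdhgb4, so the excess values of each pair can have reads in common. The 22 beta genes have no exon bases common to the cluster, and their rows ranged from 97 reads (Pcdhb1) to 11767 (Pcdhb9), 87439 in all.

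**Figure D1:**
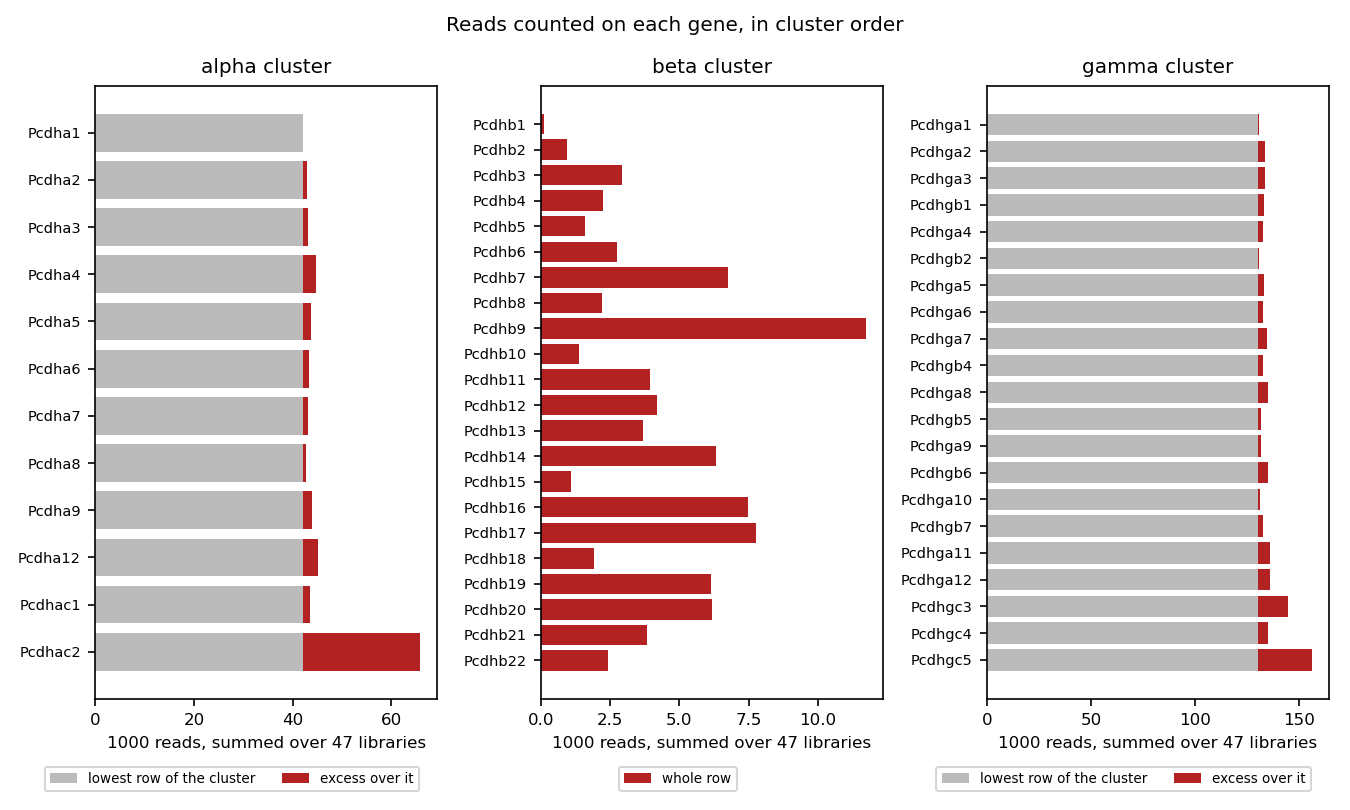
Reads counted on each gene of the alpha, beta and gamma clusters over 47 libraries, in units of 1000 reads, in cluster order, with separate horizontal scales. In the alpha and gamma panels grey is the part equal to the lowest row of the cluster in each library and red the excess over it. The 12 alpha bars and 21 gamma bars are nearly all grey, with the widest red parts on Pcdhac2 (23789 reads), Pcdhgc5 (25978) and Pcdhgc3 (14359), while each beta bar is the whole row of that gene.

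Sequence similarity within the beta cluster was measured on the transcripts of the GRCm38 annotation. Of all windows of 75 bases in a beta transcript, 0% to 8.96% occurred in a transcript of another gene for 21 of the 22 genes. The exception was Pcdhb12, with 62.94%, because 1927 of its 3034 exon bases overlap Gm37446 on the other strand. As the libraries carried no strand, reads of Pcdhb12 and Gm37446 cannot be told apart. The neighbours Pcdhb21 and Pcdhb22 overlap at chr18:37517871-37518325, so reads there can belong to either. Pcdhb9, which lies at chr18:37400855-37403909 on the plus strand as a single coding exon of 3055 bases, had 3.62% of its windows in Pcdhb3 or Pcdhb7.

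Levels were compared between genes per 1000 exon bases, as the mean CPM over 47 libraries. The shared gamma exons stood at 128 CPM per 1000 bases and the shared alpha exons at 30.5. Among the unclustered genes, Pcdh9 (46.9) and Pcdh20 (39.6) had the highest levels, followed by the activity-regulated Pcdh8 (22.1), Pcdh1 (9.87), Pcdh7 (8.10), Pcdh17 (7.51), Pcdh19 (7.05), Pcdh10 (3.57), Pcdh11x (1.53), Pcdh18 (1.12) and Pcdh15 (0.723). Pcdh12, which is known from endothelium, was lowest (0.0525). Pcdh12 (156 reads) and Pcdhb1 (97 reads) were the 2 genes that failed the count filter, so 65 of the 67 were tested.

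Beta levels spanned 120-fold, down to Pcdhb1, which failed the count filter. Pcdhb9 led with 8.02 CPM per 1000 exon bases and took 13.5% of all beta reads, ahead of Pcdhb7 (3.98), Pcdhb20 (3.69), Pcdhb17 (3.47) and Pcdhb16 (3.02). Pcdhb9 led in each of the 4 groups, and the order of the genes after it was not the same in every group. At the other end were Pcdhb2 (0.720), the lowest of the beta genes tested, and Pcdhb1 (0.0669). Summed over the cluster the beta genes reached 44.9 CPM per 1000 exon bases.

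On the same scale, but per 1000 bases of exon not shared by the cluster, the excess of Pcdhac2 was 16.5, that of Pcdhgc5 9.87 and that of Pcdhgc3 8.88. These 3 C-type genes were above every other alpha or gamma gene. The next in the gamma cluster was Pcdhga11 (4.58), and the next in the alpha cluster was Pcdha12 (2.52). The other C-type genes were lower, at 2.90 for Pcdhgc4 and 1.19 for Pcdhac1. For Pcdhgc3, 1559 exon bases overlap BC037039 on the other strand, and for Pcdhgc5, 1530 exon bases are also counted as Gm38182. Pcdhga11 overlaps Gm26672 by 1381 exon bases and Pcdha12 overlaps Gm10545 by 531, both on the other strand. The excess of these 4 genes can include reads of those annotations.

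In the hippocampus of vehicle-treated mice, age went with higher expression of the beta cluster. All 21 beta genes tested had a positive log2 fold change in Old Veh against Young Veh, from 0.09 to 0.85 with a median of 0.35, where the median of all 17778 genes was -0.01 and 45.3% of genes were above 0. By edgeR's quasi-likelihood test, 10 beta genes rose at an adjusted p under 0.05 and none fell. Pcdh1 rose as well, so that 11 of 65 protocadherin genes were called, all higher, where 2.77% of all genes tested were called and 2.16% were called higher. No alpha or gamma row was called, and their log2 fold changes stayed between -0.03 and 0.02. The largest departure was that of the alpha row Pcdha3 (-0.03 ± 0.04, edgeR adjusted p = 0.805).

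**Figure D2:**
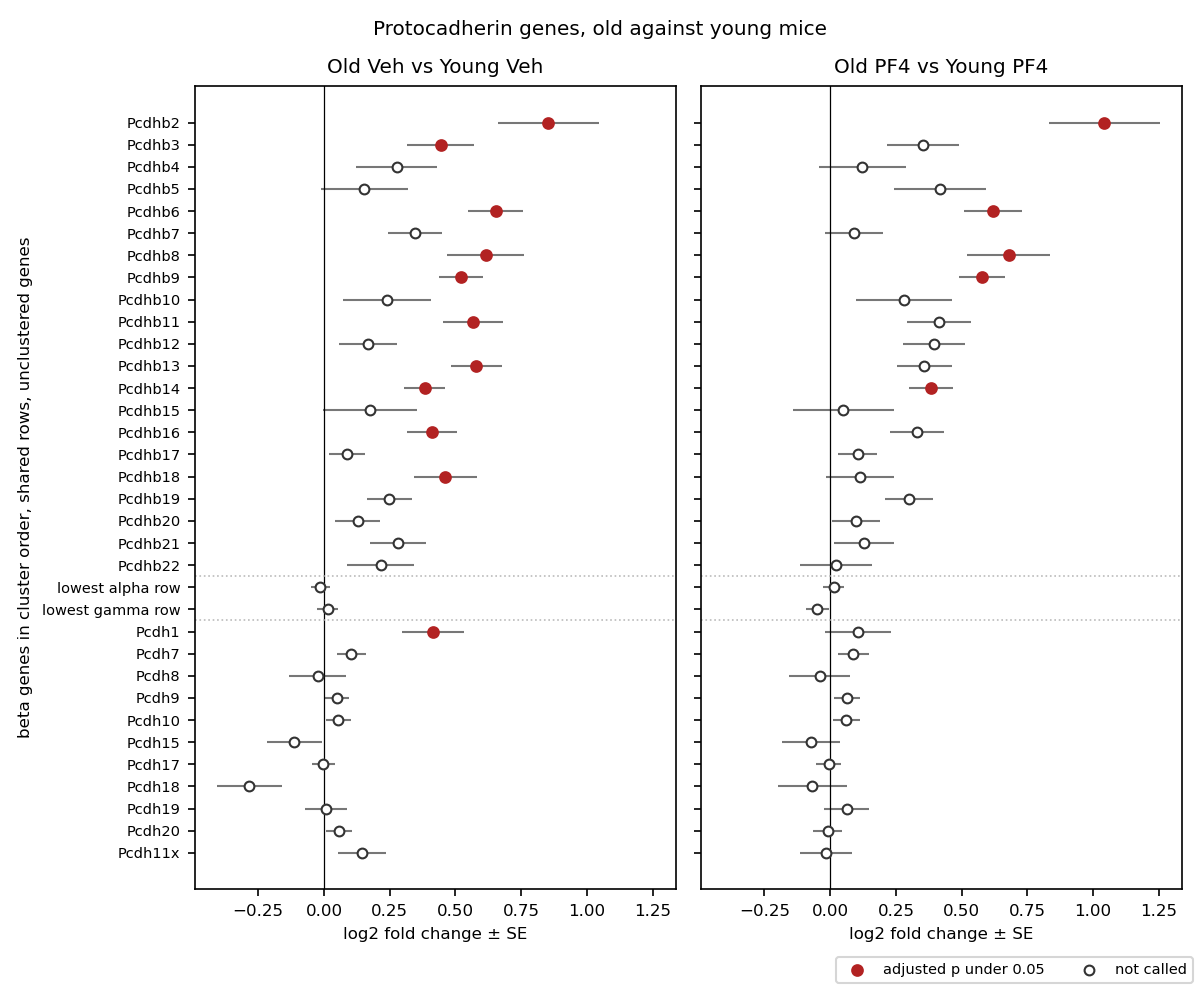
Log2 fold change ± SE of old over young mice, given vehicle (left) or PF4 (right), for 21 beta genes in cluster order, the lowest alpha and gamma rows, and 11 unclustered genes. Red points are genes with an edgeR adjusted p under 0.05. All 21 beta points lie right of 0 in both panels, 10 of them red on the left and 5 on the right, and the shared alpha and gamma rows lie at 0.01 and -0.05 on the right and at -0.01 and 0.01 on the left.

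Pcdhb9, the most abundant beta gene, ran from 15.5 to 28.5 CPM (median 20.4) in Young Veh and from 22.8 to 36.8 (median 28.8) in Old Veh. In all 12 Old Veh libraries it was above the Young Veh median, and in 7 of 12 it was above every Young Veh library. Its log2 fold change was 0.52 ± 0.08 (SE, edgeR adjusted p = 4.3e-05), a 1.43-fold rise. Among the mice given PF4, Pcdhb9 ran from 16.7 to 23.2 CPM (median 20.4) in Young PF4 and from 24.4 to 42.4 (median 28.8) in Old PF4. These groups did not overlap. Of 17778 genes tested, Pcdhb9 was the 1 gene whose Old PF4 and Young PF4 libraries did not overlap (0.00562%), with a log2 fold change of 0.58 ± 0.09 (edgeR adjusted p = 0.00018). Between Old Veh and Young Veh, 0.0619% of genes did not overlap, and no protocadherin was among them.

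Pcdhb6 had the smallest adjusted p after Pcdhb9. It ran from 3.54 to 6.16 CPM (median 4.05) in Young Veh, from 3.59 to 7.43 (4.85) in Young PF4, from 5.58 to 8.47 (6.80) in Old Veh and from 4.67 to 9.48 (7.24) in Old PF4. In 9 of 12 Old Veh libraries it exceeded every Young Veh library. The log2 fold change of age was 0.65 ± 0.10 in vehicle-treated mice (edgeR adjusted p = 4.63e-05) and 0.62 ± 0.11 in PF4-treated mice (edgeR adjusted p = 0.00179).

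Pcdhb13 ran from 4.43 to 9.27 CPM (median 6.05) in Young Veh and from 7.62 to 11.8 (9.51) in Old Veh, so that the groups overlapped although 12 of 12 Old Veh libraries were above the Young Veh median. It rose by 0.58 ± 0.10 on the log2 scale in vehicle-treated mice (edgeR adjusted p = 0.00011). In PF4-treated mice the medians were 6.76 and 8.93 CPM, a log2 fold change of 0.36 ± 0.10 that was not called (edgeR adjusted p = 0.14).

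Pcdhb2 had the widest change and the fewest reads among the genes called, with a median of 15 reads per library in Young Veh and 21.5 in Old Veh. Its level ran from 0.442 to 2.82 CPM (median 1.24) in Young Veh, from 0.660 to 3.13 (1.28) in Young PF4, from 1.94 to 3.99 (2.59) in Old Veh and from 1.52 to 4.12 (2.85) in Old PF4. The log2 fold change of age was 0.85 ± 0.19 in vehicle-treated mice (edgeR adjusted p = 0.00671) and 1.04 ± 0.21 in PF4-treated mice (edgeR adjusted p = 0.00964).

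Pcdhb14 has the most exon bases of the beta cluster, 8695. Its level ran from 7.08 to 14.2 CPM (median 11.9) in Young Veh, from 8.51 to 15.4 (11.1) in Young PF4, from 12.8 to 17.7 (16.1) in Old Veh and from 12.8 to 19.1 (14.9) in Old PF4. In both treatments it rose with age by 0.38 ± 0.08 (edgeR adjusted p = 0.00203 with vehicle and 0.0178 with PF4). The call with PF4 was lost with only the groups compared in the fit (adjusted p = 0.0679).

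The other beta genes called in vehicle-treated mice were Pcdhb8 (log2 fold change 0.62 ± 0.15), Pcdhb11 (0.57 ± 0.11), Pcdhb18 (0.46 ± 0.12), Pcdhb3 (0.44 ± 0.13) and Pcdhb16 (0.41 ± 0.09). Their edgeR adjusted p ran from 0.00184 to 0.0433. Pcdhb8 was also called in PF4-treated mice, at 0.68 ± 0.16 (edgeR adjusted p = 0.0319), with medians of 3.33, 3.23, 5.59 and 5.16 CPM in Young Veh, Young PF4, Old Veh and Old PF4. That call with PF4 held in 12 of the 22 fits that each left out 1 library, with a largest adjusted p of 0.0971, and was lost with only the groups compared in the fit (adjusted p = 0.116). With vehicle, Pcdhb18 lost its call with only the groups compared in the fit (adjusted p = 0.0593). Pcdhb3 was the least stable of the genes called in the vehicle comparison. It kept its call in 10 of the 25 fits that each left out 1 library, with a largest adjusted p of 0.0833, and lost it with no count filter (0.0636), with the length index (0.0642) or the library number centred within age (0.0513) as covariate and without the 8 libraries of lowest depth (0.161).

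Genes called and not called were interspersed along the beta cluster. The 10 called genes lay between Pcdhb2 and Pcdhb18, and 7 genes within that stretch were not called (Pcdhb4, Pcdhb5, Pcdhb7, Pcdhb10, Pcdhb12, Pcdhb15 and Pcdhb17). Among them, Pcdhb7 narrowly missed the threshold (log2 fold change 0.35 ± 0.10, edgeR adjusted p = 0.0535), and Pcdhb17, the second beta gene by reads, had the smallest value (0.09 ± 0.07, edgeR adjusted p = 0.581). Pcdhb19, Pcdhb20, Pcdhb21 and Pcdhb22 at the gamma side had values of 0.13 to 0.28. Pcdhb1 had between 0 and 14 reads per library and was not tested.

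In PF4-treated mice the same comparison of age called 5 of 65 protocadherin genes, Pcdhb2, Pcdhb6, Pcdhb8, Pcdhb9 and Pcdhb14, all higher in Old PF4, where 0.332% of all genes were called and 0.304% were called higher. All 5 were among the 10 beta genes called in vehicle-treated mice. With only the groups compared in the fit, 3 beta genes were called with PF4. The comparisons of age in vehicle-treated and in PF4-treated mice use no library in common. They were fitted together, however, and share an estimate of the spread, and the library number is separated by age in both. The 21 beta genes tested again had positive values throughout, from 0.02 (Pcdhb22) to 1.04 (Pcdhb2), with a median of 0.33 where that of all genes was 0.00407. Across these 21 genes the log2 fold changes of the comparisons correlated with Pearson's r = 0.776 and Spearman's rho = 0.626. The genes share libraries within each comparison and are not independent replicates. Of the genes called with vehicle only, Pcdhb18 had 0.11 ± 0.13 with PF4, and Pcdhb3, Pcdhb11, Pcdhb13 and Pcdhb16 had values of 0.33 to 0.41.

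Summed over its 22 genes, the beta cluster took 143 to 179 CPM in Young Veh (163 ± 9.04, mean ± SD), 151 to 179 in Young PF4 (162 ± 8.04), 191 to 230 in Old Veh (211 ± 11.7) and 187 to 226 in Old PF4 (202 ± 14.7). The 22 old libraries were therefore all above the 25 young ones. Relative to the mean of Young Veh, the mean of Old Veh was 1.29 times as high, that of Old PF4 1.24 times and that of Young PF4 0.991 times. The lowest alpha row gave means of 87.2, 87.5, 85.9 and 88.6 CPM in Young Veh, Young PF4, Old Veh and Old PF4, and the lowest gamma row means of 269, 275, 271 and 266 CPM, and on both the groups overlapped. Unclustered genes summed to means of 1070, 1053, 1125 and 1078 CPM, with 7 of 12 Old Veh libraries above every Young Veh library and 0 of 10 Old PF4 libraries above every Young PF4 library.

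**Figure D3:**
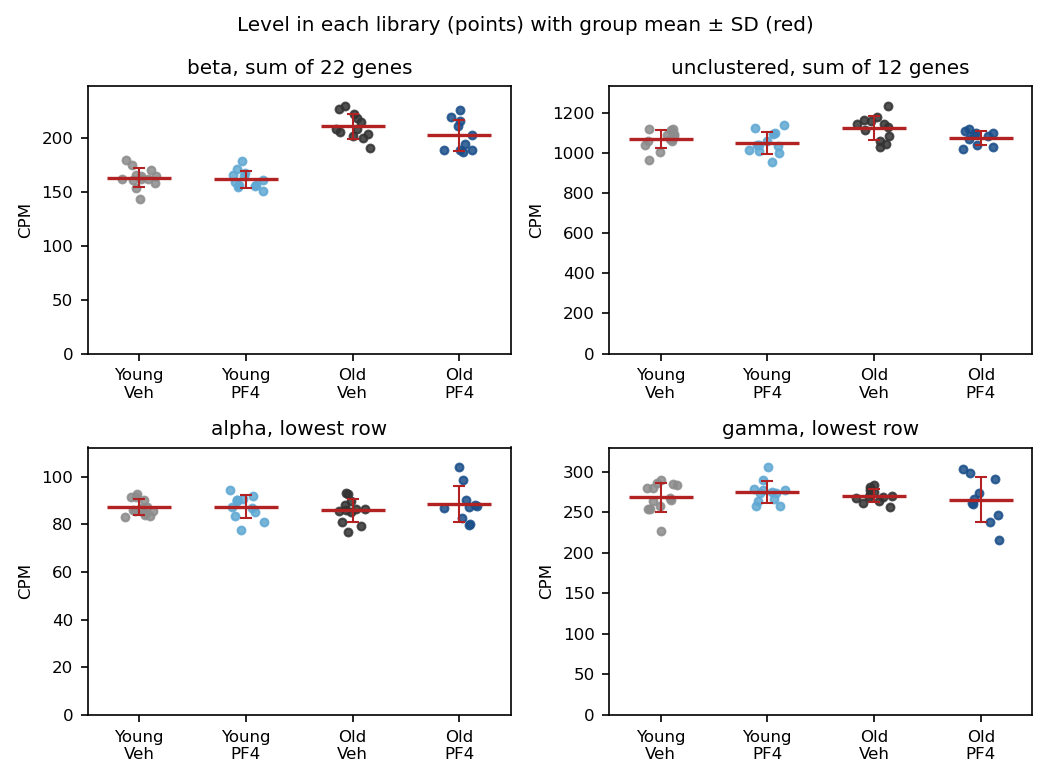
Level in each library in CPM, by group, with the group mean ± SD in red, for the sum of 22 beta genes, the sum of 12 unclustered genes, the lowest alpha row and the lowest gamma row. The beta sum is at most 179 CPM in the 25 young libraries and at least 187 in the 22 old ones, and in the other 3 panels old and young libraries overlap.

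The shared exons, which are common to all isoforms of a cluster, did not differ detectably with age. The lowest alpha row had a log2 fold change of -0.01 ± 0.04 with vehicle and 0.01 ± 0.04 with PF4, and the lowest gamma row 0.01 ± 0.04 and -0.05 ± 0.04. In the excess over the lowest row, 11 of the 12 alpha genes could be tested. Of these, 5 were above 0 with vehicle, with a median of -0.02, and 3 with PF4, with a median of -0.11. Of the 21 gamma genes, 15 were above 0 with vehicle, with a median of 0.10, and 6 with PF4, with a median of -0.14. Of all rows, 46.6% and 50.7% were above 0. Within a library each excess is taken over the same lowest row, so the excess values of a cluster are not independent.

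Of these excess values, 2 were called in the vehicle comparison, where 2.86% of all rows were called. Pcdhga1 was higher (2.56 ± 0.72, edgeR adjusted p = 0.0342) and Pcdhgb2 lower (-2.50 ± 0.73, edgeR adjusted p = 0.0463). These were the lowest gamma rows in 26 and 17 of the 47 libraries, where their excess is 0 by construction, so a fold change of either is set by which of the pair was lowest. Without them, the smallest adjusted p among the gamma excess values was 0.105, for Pcdhga6 (0.61 ± 0.21).

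None of the 5 C-type genes was called with age in its excess. The excess of Pcdhac2 had medians of 52.0, 49.9, 52.9 and 49.0 CPM in Young Veh, Young PF4, Old Veh and Old PF4, with a log2 fold change of 0.02 ± 0.07 with vehicle and -0.06 ± 0.08 with PF4. That of Pcdhgc5 had medians of 55.0, 54.9, 55.9 and 52.2 CPM, with 0.10 ± 0.07 and -0.10 ± 0.08. Pcdhgc3 gave -0.17 ± 0.10 and -0.10 ± 0.10, and Pcdhac1, which is low, -0.07 ± 0.20 and -0.15 ± 0.22. Pcdhgc4, which is known for its part in the survival of interneurons, gave 0.01 ± 0.09 with vehicle and -0.30 ± 0.10 with PF4, the latter at an edgeR adjusted p of 0.264.

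Among the unclustered genes, Pcdh1 was the only one called. It ran from 52.2 to 106 CPM (median 83.2) in Young Veh, from 48.7 to 97.2 (80.4) in Young PF4, from 66.5 to 148 (102) in Old Veh and from 42.2 to 108 (84.8) in Old PF4. Its log2 fold change was 0.42 ± 0.12 with vehicle (edgeR adjusted p = 0.0375) and 0.10 ± 0.13 with PF4 (edgeR adjusted p = 0.896). In 5 of 12 Old Veh libraries it was above every Young Veh library. This call was lost with a choroid plexus score (0.34, adjusted p = 0.135), a transcript length index (0.32, adjusted p = 0.0676) or the library number centred within age (0.39, adjusted p = 0.0578) as covariate and without the 8 libraries of lowest depth (0.37, adjusted p = 0.186). It held in 15 of the 25 fits that each left out 1 library, with a largest adjusted p of 0.0925.

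The remaining 10 unclustered genes that were tested had values of -0.28 to 0.14 with vehicle. At the ends were Pcdh18, a delta-2 gene (-0.28 ± 0.12, edgeR adjusted p = 0.24), and Pcdh11x on the X chromosome (0.14 ± 0.09, edgeR adjusted p = 0.469). The most abundant unclustered genes, Pcdh9 (0.05 ± 0.05) and Pcdh20 (0.06 ± 0.05), were not called. Pcdh19, whose human counterpart is mutated in a female-limited epilepsy, had a value of 0.01 ± 0.08. With PF4 the 11 tested genes had values of -0.07 to 0.10, and none was called.

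**Figure D4:**
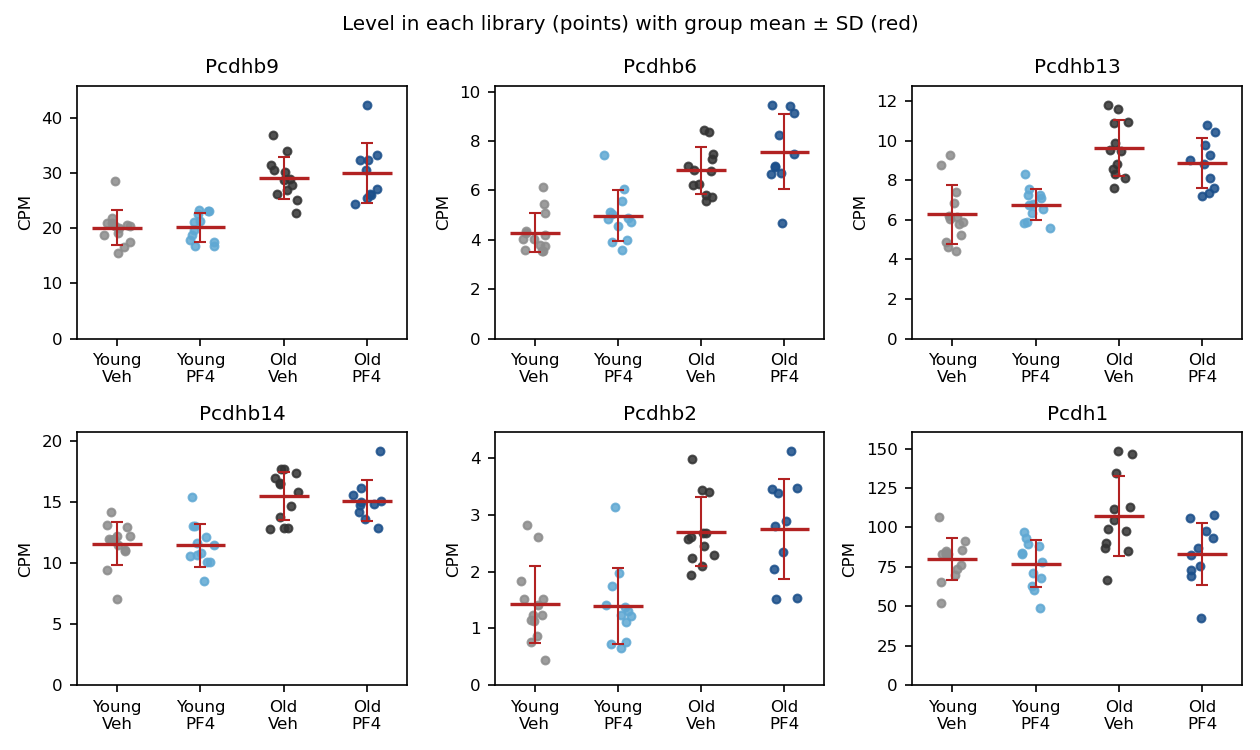
Level of 5 beta genes and Pcdh1 in each library in CPM, by group, with the group mean ± SD in red. Pcdhb9 is at least 24.4 CPM in Old PF4 and at most 23.2 in Young PF4, the other beta genes are higher in both old groups with some overlap, and Pcdh1 has its highest libraries in Old Veh.

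PF4 itself changed no protocadherin gene detectably at either age. The library numbers separate Old PF4 from Old Veh, but not Young PF4 from Young Veh. In Old PF4 against Old Veh, 0 of 65 were called by edgeR or by DESeq2, where 0.0337% of all genes were called. None of the 12 alpha and 21 gamma whole rows, which mostly hold the same shared reads, had an unadjusted p under 0.05. Of the others, 2 of 21 beta and 2 of 11 unclustered genes did, where 6.2% of all genes did (1102 of 17778). The 4 were Pcdh1 (-0.36 ± 0.13, adjusted p = 0.531), Pcdhb18 (-0.32 ± 0.13, adjusted p = 0.677), Pcdhb16 (-0.22 ± 0.10, adjusted p = 0.784) and Pcdh20 (-0.12 ± 0.05, adjusted p = 0.77). Among the alpha rows the smallest p was that of Pcdha4 (0.05 ± 0.04, adjusted p = 0.934). The 21 beta genes had a median of -0.05, with 6 above 0, and 4 of the 11 unclustered genes were above 0. Of all genes 54.0% were above 0, with a median of 0.00863. For Pcdhb9 the value was 0.04, with a 95% interval from -0.13 to 0.21, and for Pcdhb6 0.15, with a 95% interval from -0.06 to 0.36.

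In young mice, 0 of 65 protocadherin genes were called by either tool, as were 0.0% of all genes, and none of the whole rows had an unadjusted p under 0.05. The beta genes had a median of -0.01, and the largest values were -0.23 ± 0.17 for Pcdhb10 and 0.18 ± 0.11 for Pcdhb6. The difference of the PF4 effect between ages was likewise called for 0 of 65 by either tool and for 0.0% of all genes, with none of the whole rows under an unadjusted p of 0.05. It was -0.31 ± 0.17 for Pcdh1 (p = 0.077), -0.35 ± 0.18 for Pcdhb18 (p = 0.0649) and 0.06 ± 0.12 for Pcdhb9.

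The excess over the lowest row, which holds an alpha or gamma gene's reads beyond the shared exons, was not called for PF4 in any comparison either. In old mice 4 of the 11 alpha and 21 gamma genes tested had an unadjusted p under 0.05, where 6.3% of all rows did. All 4 were lower with PF4, though the excess values of a cluster share the same lowest row and are not independent. They were Pcdha8 (-1.06 ± 0.43), Pcdha7 (-0.67 ± 0.28), Pcdhgb6 (-0.25 ± 0.11) and Pcdhgc5 (-0.17 ± 0.08), with edgeR adjusted p of 0.675 to 0.789. The medians in old mice were -0.22 for alpha and -0.13 for gamma. In young mice Pcdhgb4 alone was under 0.05, where 1.2% of all rows were (0.42 ± 0.19, edgeR adjusted p = 0.9998), and the medians were -0.07 and 0.08. For the difference between ages 3 gamma genes were under 0.05, where 3.92% of all rows were. They were Pcdhgc4 (-0.31 ± 0.14), Pcdhgb6 (-0.34 ± 0.15) and Pcdhgb2 (2.32, p = 0.0362), each at an edgeR adjusted p of 0.9998. Pcdhgb2, Pcdha8 and Pcdha7 were the lowest row of their cluster in 17, 5 and 1 of the 47 libraries, where their excess is 0 by construction.

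**Figure D5:**
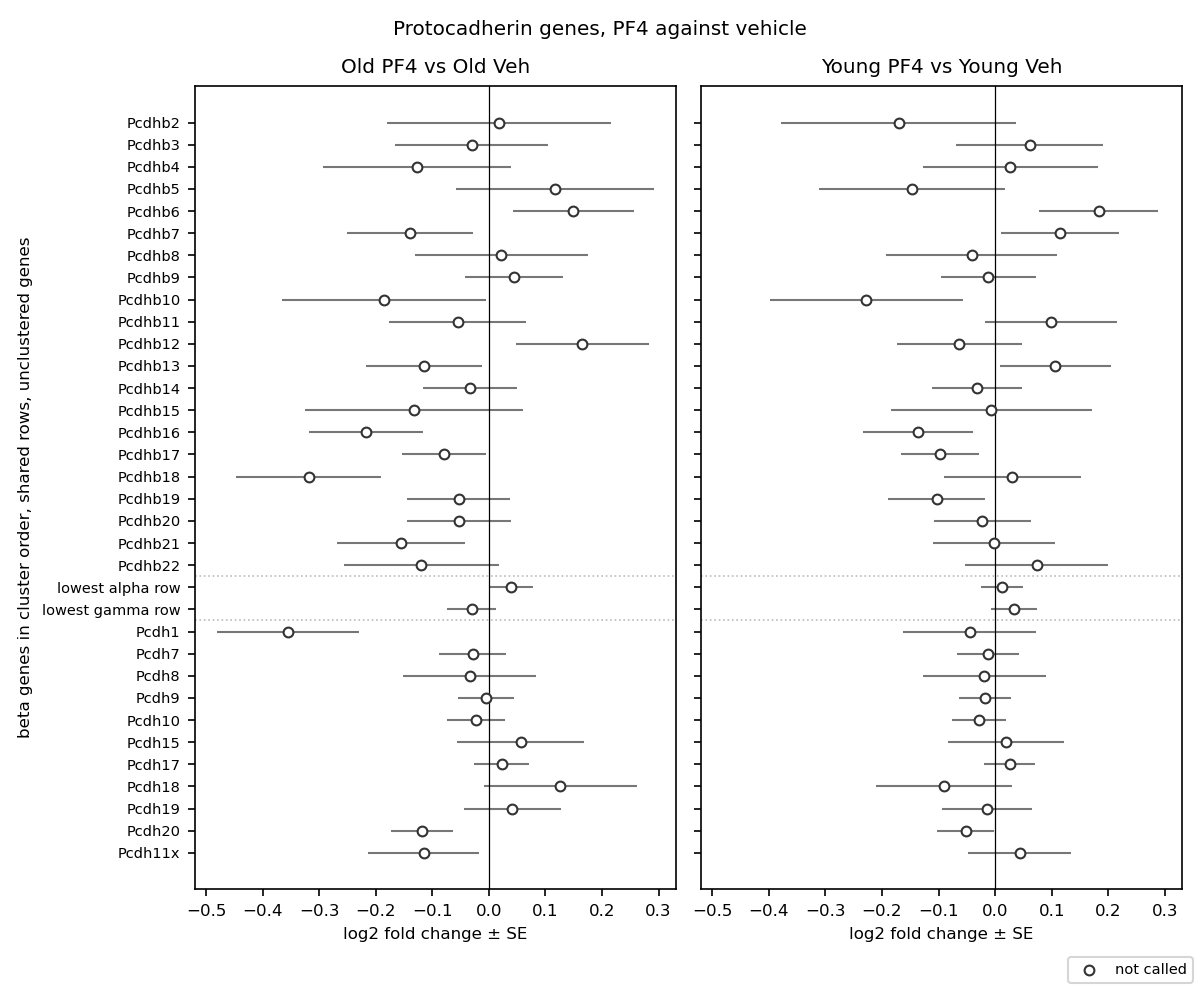
Log2 fold change ± SE of PF4 over vehicle in old (left) and young (right) mice for the same genes and shared rows as in the plot of age. No point passes an edgeR adjusted p of 0.05, and the lowest is Pcdh1 in old mice at -0.36.

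The beta genes were set beside genes of a single exon and genes near the clusters. In the annotation 18 of the 22 beta genes have a single exon, and Pcdhb2, Pcdhb6, Pcdhb8 and Pcdhb22 have 2. Of other protein-coding genes with a single exon, 360 were tested, and their median was -0.05 with vehicle and 0.01 with PF4, with 126 and 190 above 0. In the vehicle comparison, Hist1h1e and B430305J03Rik were called higher and Exosc6 and Htr1a lower, and in the PF4 comparison none was called. Of other protein-coding genes within 1000000 bases of the clusters, 37 were tested, with medians of -0.03 and -0.05. Only AC115631.1 among them was called, with vehicle (0.26 ± 0.08, edgeR adjusted p = 0.0482). Between the first alpha and the last gamma exon, 4 other genes were tested and none was called. The smallest adjusted p there with vehicle was 0.425, for Taf7 at -0.21 ± 0.12. These genes were named after their values had been seen.

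The promoters of clustered protocadherins are chosen and silenced by CTCF, cohesin and DNA and histone methylation, and 15 genes of a list of 16 such regulators were tested. With vehicle, 3 of the 15 rose with age, where 2.16% of all genes did, and none fell. Among those that rose were Wapl, which releases cohesin from chromatin (0.20 ± 0.05, edgeR adjusted p = 0.0284), and the cohesin subunit gene Stag1 (0.18 ± 0.05, edgeR adjusted p = 0.0193). The median of the 15 was 0.04. In the PF4-treated mice none was called, and the smallest p was that of Wapl (0.14 ± 0.06, edgeR adjusted p = 0.444). For PF4 in old mice 1 of the 15 was called, lower in Old PF4, where 0.0337% of all genes were called, and in young mice and for the difference between ages none was. The smallest p for PF4 in young mice was that of Stag1 (0.06 ± 0.05).

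Of 22 genes for binding partners and signalling, such as the focal adhesion kinases and the WAVE complex, all were tested. With vehicle 1 of the 22 fell with age and none rose, where 2.77% of all genes were called in either direction, and the median was 0.00157. In the other comparisons none was called. Their smallest p values belonged to Nlgn1 for age with PF4 (0.14 ± 0.08), Rac1 for PF4 in old mice (0.08 ± 0.03), Cyfip1 for PF4 in young mice (-0.04 ± 0.03) and Marcks for the difference between ages (0.18 ± 0.09).

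Markers of other cells were read in the same fits. The summed level of 10 choroid plexus markers was 12.0 to 4259 CPM in Young Veh (median 1943), 94.0 to 3448 in Young PF4 (2380), 15.1 to 4259 in Old Veh (47.1) and 25.9 to 3280 in Old PF4 (65.9). All 10 had negative log2 fold changes in both comparisons of age, with medians of -0.92 and -1.05, and none was called. With the choroid plexus score as a covariate, 10 beta genes were called with vehicle and 5 with PF4, where 2.02% and 0.394% of all genes were called, and the median of the 21 beta genes was 0.34 and 0.33. Astrocyte markers gave Aldh1l1 lower with vehicle (-0.19 ± 0.06, edgeR adjusted p = 0.0465) and Gfap higher with PF4 (0.49 ± 0.09, edgeR adjusted p = 0.00179), of 4 tested. None of 6 hippocampal neuron, 4 oligodendrocyte, 2 oligodendrocyte precursor, 4 microglia, 4 endothelium and 4 interneuron markers was called in either comparison of age, with list medians of -0.07 to 0.22. All 4 oligodendrocyte markers (medians 0.09 with vehicle and 0.22 with PF4) and all 4 microglia markers (0.14 and 0.20, smallest edgeR adjusted p = 0.0524) were above 0 in both comparisons of age, as the beta genes were. Their part in the beta result was not tested.

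Without the 8 libraries of lowest depth, 5 protocadherin genes were called with vehicle (Pcdhb6, Pcdhb8, Pcdhb9, Pcdhb11 and Pcdhb13) and 3 with PF4 (Pcdhb2, Pcdhb6 and Pcdhb9), where 0.975% and 0.227% of all genes were called. The beta medians were 0.30 and 0.30 in that fit. With the library number as a covariate, which is separated by age, no protocadherin gene was called by edgeR in either comparison, as were 0.0% of all genes. At an unadjusted p under 0.05 were 7 of the 65 with vehicle and 7 with PF4, where 6.68% and 3.65% of all genes were. Beta genes made up 6 and 7 of these, of 21 tested. In that fit 16 and 17 of the 21 beta genes were above 0, where 43.7% and 48.2% of all genes were, the beta medians were 0.34 and 0.20, and the median SE of a beta gene was 0.23 and 0.20.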

How the data were processed

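Hippocampal RNA of 47 mice was converted to cDNA by Smart-Seq2 and made into libraries without strand information. The values that the authors deposited are unnormalized read counts, 1 row per gene. Their processing notes name Trim Galore 0.3.7, STAR 2.5.3a, GRCm38 and DESeq2, and the counting tool and its rule for shared exons are not given in the sources used here. The paper's methods state that samples of low coverage were excluded. Each sample was grouped by its age and treatment labels. The paper's methods treat each library as 1 mouse.

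Counts were fitted as deposited with edgeR 4.0.16 in R 4.3.3 (quasi-likelihood test, TMM normalization, filterByExpr, the 4 groups in 1 fit), and 17778 genes were tested. Calls are genes with an adjusted p (Benjamini-Hochberg, over all genes tested) under 0.05. The SE of a log2 fold change was derived from its size and its F statistic. For some genes the p is larger than that SE implies, because edgeR does not let a p fall below its Poisson bound. CPM and exon bases (from a GENCODE annotation of GRCm38) gave the levels. The length index of a library is the mean log2 CPM, centred per gene, of genes with a longest transcript of at least 4594 bases minus that of genes with at most 2006 bases. Choroid plexus scores are the mean log2 CPM of 10 markers. DESeq2 1.42.0 and the other settings are given in the closing section. Depth, from 2242879 to 21112908 reads, limits the precision of low genes.

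On counts simulated for Old Veh against Young Veh (17631 genes tested), edgeR recovered 28.4% of 67 genes changed by 0.25 on the log2 scale, 67.2% of 67 changed by 0.5 and 93.8% of 64 changed by 1, with 8 other genes called. DESeq2 recovered 29.9%, 68.7% and 93.8%, with 10 others called.

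The members, the gene lists and the tests were chosen with earlier results of these data known. The lists were 16 regulators of promoter choice and silencing, 22 binding partners and signalling genes, and markers of 8 cell types. The names and values of some called genes of the first 2 lists are not reported here. Named members are those called in any comparison, the member with the smallest p of each subfamily in each comparison, the most abundant member of each subfamily and the 5 C-type genes. The excess over the lowest row was added as an alternative after seeing the data.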

Additional observations from a re-analysis of the deposited data

Results flagged for a closer look

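In Old PF4, the group of 10 in which the gap of the most extreme library was compared with the whole range, 3 of 32 values screened had a library that stood apart, where chance gives about 1 in 20. Pcdhb9 was 42.38 CPM in Old PF4 replicate 8 and 33.2 in the next library. That library also had the lowest length index of its group (-0.228, next -0.0659), and the Young Veh library with the highest Pcdhb9 (replicate 4, 28.5 CPM) had the lowest index of all (-0.348). With the index as covariate the log2 fold change of age for Pcdhb9 was 0.60 with vehicle and 0.55 with PF4 (edgeR adjusted p = 5.26e-07 and 1.61e-05). Without that library its log2 fold change of age with PF4 was 0.50, and it was called in all 22 fits that left out a library. Old PF4 replicate 1, the library of lowest depth in its group, had the highest Pcdhb14 (19.13 CPM, next 16.1) and the lowest Pcdh15 (10.3 CPM, next 15.1). Pcdhb14 was called in 20 of the 22 fits that left out a library.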

How the results depend on the processing

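In all settings tried, 0 protocadherin genes were called for PF4 in old mice, PF4 in young mice or the difference between ages. For age with vehicle (11 called) and age with PF4 (5 called), DESeq2's test gave 12 and 5, its size factors 12 and 5, no count filter 10 and 5, a stricter filter 12 and 5, the length index as covariate 10 and 5, the choroid plexus score 10 and 5, the library number centred within age 9 and 5, and the excess rows 14 and 5. The library number as a covariate gave 0 and 0. Without the 8 libraries of lowest depth the counts were 5 and 3, and with only the groups compared they were 11 and 3. The genes were not always the same, since with vehicle Pcdhb7 was gained as Pcdhb18 was lost with only the groups compared, and Pcdhb7 was gained as Pcdhb3 and Pcdh1 were lost with the length index. Leaving out each library in turn gave 9 to 11 and 3 to 5, and the 3 came without Young PF4 replicate 5. The cause of these differences was not tested beyond fewer libraries in the fits that leave some out. The sign of the 16 gene results called stayed positive under every setting. No subfamily median moved by as much as 1 SD of its group with DESeq2's size factors or without the 8 libraries of lowest depth. With the replicate number as a block, 11 and 5 genes were called. The numbers did not pair the samples, since 24 of 66 same-numbered pairs correlated above 0.1 and 7 of 47 libraries correlated best with their own number. Depth limits genes such as Pcdhb2 and Pcdhb1.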
